A study of Rattus norvegicus and Bos taurus with 6 samples.

Results

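Collagens are the main structural proteins of the extracellular matrix, and each molecule is built from 3 chains, which come from the same gene or from different genes. The members were all genes whose symbol is Col, a number, a and a number, without the 3 genes of collagen V. This gave 42 genes over the 6 libraries, of 63342 gene symbols in all. Of these, 41 were listed in the 10x Genomics rat library, 40 in each rat Parse library and 41 in the cow library. By structure, 8 genes encode fibrillar chains, 6 chains of the collagen IV network, 6 chains of collagen VI, 1 collagen VII, 3 short-chain network collagens, 10 FACIT collagens (which sit on the surface of fibrils), 4 transmembrane collagens and 2 multiplexins (collagens XV and XVIII). Another 2 genes, Col26a1 and Col28a1, fall outside these groups.

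Single-nucleus RNA-seq was done on snap-frozen adipose tissue, with 1 library per condition and no replicate. The rat libraries came from male Dahl SS rats (SS/HsdMcwiCrl, a strain known for salt-sensitive hypertension), labelled normal: mesenteric perivascular fat (mesPVAT) on the 10x Genomics platform, and mesPVAT, retroperitoneal (RP) fat, perivascular fat of the thoracic aorta (taPVAT) and subscapular brown fat (BAT) on the Parse platform. The cow library came from subcutaneous white fat (WAT) of the flank of a female Holstein on the Parse platform. The paper describes the cows as lactating. The 10x library was a separate batch, with another nuclei isolation. Within the Parse libraries, the paper used a further filter for cow nuclei and a slower centrifuge spin for taPVAT than for white fat. Tissue, platform and preparation cannot be told apart where they differ together. Ucp1, which defines brown adipocytes, was at 1782 CPM in taPVAT and 2072 CPM in BAT, and at 0.654 to 89.9 CPM in the other libraries. CPM is the number of UMIs (counted transcripts) of a gene per 1000000 UMIs of the library or class. The study's account of the Parse libraries of mesPVAT and RP fat looks exchanged against the deposited labels, and they are named here by those labels. If the labels are exchanged, each ratio of mesPVAT to RP fat turns over, and the 10x library is compared with RP fat rather than mesPVAT.

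Total depth ran from 845316 UMIs in RP fat to 16827260 UMIs in cow WAT, and the median nucleus held 161 to 346 UMIs in the white rat libraries, 1246 to 1706 in the brown depots and 3530 in the cow. No nucleus barcode was shared between libraries. Intervals are exact 95% Poisson intervals, which cover counting error only. A gene with no UMI is given with the limit of 3 UMIs.

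In fat, fibrillar collagens I and III form the stroma, collagen VI forms beaded filaments around adipocytes, and collagen IV forms the basement membrane that wraps adipocytes and vessels. Fibroblast-like progenitor cells are known as the main source of fibrillar collagens. Collagen VII forms the anchoring fibrils that hold the epidermis to the dermis.

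The genes of the main collagen IV chains, Col4a1 and Col4a2, lie head to head on chromosome 16 of the rat genome (GRCr8), at 84885597 to 84996482 on the plus strand and 84749672 to 84885520 on the minus strand. Only 76 bases, at 84885521 to 84885596, lie between their starts. They are shown because the levels of both chains, whose genes start at the edges of this stretch, were compared as a pair in every library; the capitals mark the GC box letters (GGGCGG on either strand). The Col7a1 stretch holds the 250 bases before its start, at 118483114 to 118483363 of chromosome 8 on the plus strand, and is shown because Col7a1 had the highest level per kilobase in both brown depots. Both sequences are RefSeq sequences of GRCr8.
Col4a2-Col4a1: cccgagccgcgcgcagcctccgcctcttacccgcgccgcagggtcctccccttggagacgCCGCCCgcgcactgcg
Col7a1: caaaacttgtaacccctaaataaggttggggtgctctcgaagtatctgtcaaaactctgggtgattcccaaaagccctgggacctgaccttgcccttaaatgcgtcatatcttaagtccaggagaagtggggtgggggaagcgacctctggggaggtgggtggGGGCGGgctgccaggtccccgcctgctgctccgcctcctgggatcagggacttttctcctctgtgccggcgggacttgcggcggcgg

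Each of these stretches held 1 GC box match. Over 27457 rat promoters of 250 bases, 32.4% held the GC box, and 17 of the 32 members with a promoter sequence did. The TATA box letters TATAAA were in 13.1% of promoters and in neither stretch shown.

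Summed over members, collagen made up 4564 CPM (95% interval 4446 to 4684) in mesPVAT 10x, 6098 CPM (5979 to 6218) in mesPVAT Parse, and 5387 CPM (5232 to 5546) in RP fat. The brown depots were at 4103 CPM (4047 to 4159) for taPVAT and 3659 CPM (3612 to 3707) for BAT, and cow WAT was at 8174 CPM (8131 to 8217). The intervals did not overlap between any of the libraries, with cow WAT highest and BAT lowest. Within BAT, the summed level was 3486 CPM in 1 sublibrary and 3833 CPM in the other, and these intervals did not overlap, as in cow WAT (8191 to 8318 and 8045 to 8163 CPM). In mesPVAT Parse, RP fat and taPVAT the intervals of the sublibraries overlapped. Collagen IV was the largest share of collagen UMIs in BAT, at 50.2%, and in taPVAT at 37.9%, cow WAT at 39.6% and mesPVAT Parse at 35%. In mesPVAT 10x and RP fat the fibrillar group was largest, at 35.4% and 24.2%. Fewer cells of a type and less RNA per cell cannot be told apart in these sums.

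**Figure D1:**
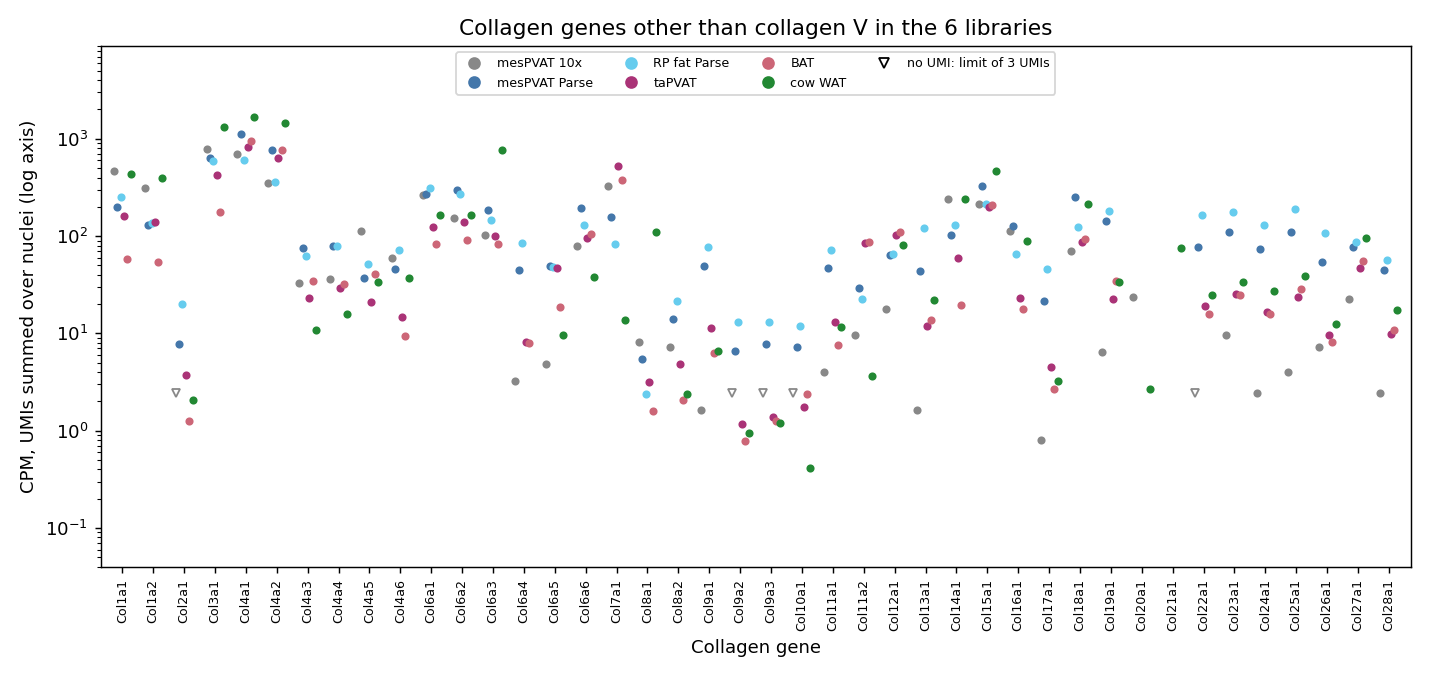
Level of each member in each library, as CPM of UMIs summed over nuclei on a log axis, with 1 point per library and open triangles at the limit of 3 UMIs where no UMI was counted. Col4a1 and Col4a2 lie between 351 and 1691 CPM in all libraries, while Col7a1 is at 13.8 CPM in cow WAT and at 82.8 to 525 CPM in the rat libraries.

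Levels of different genes were compared per kilobase of gene body, because nuclear RNA holds introns. Whether UMI counts rise with that length was not tested. Col1a1, a chain of collagen I, was highest in mesPVAT 10x, at 27.5 CPM per kilobase, followed by Col3a1 at 22.1 and Col6a1 at 14.3 CPM per kilobase. In mesPVAT Parse the order was Col3a1 (17.6 CPM per kilobase), Col6a1 (14.7) and Col1a1 (11.7). In RP fat it was Col6a1 (16.8 CPM per kilobase), Col3a1 (16.3) and Col1a1 (14.7). Per kilobase, Col7a1 led both brown depots. It was at 16.2 CPM per kilobase in taPVAT, ahead of Col3a1 (11.8) and Col1a1 (9.51). In BAT it was at 11.6 CPM per kilobase, ahead of Col4a1 (8.51) and Col4a2 (5.7). Without regard to length, Col4a1 was above Col7a1, at 826 against 525 CPM in taPVAT and 944 against 377 CPM in BAT. Gene lengths were not used for the cow.

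To place the genes in cell types, a nucleus was assigned to a class when it held a UMI of exactly 1 of Plin1 (adipocytes), Pdgfra (stromal progenitors), Ptprb (endothelium), Notch3 (pericytes and smooth muscle) and Msln (mesothelium). Plin1-only nuclei numbered 150 in cow WAT and 240 to 1430 in the rat libraries. Pdgfra-only nuclei numbered 19 in BAT and 42 to 205 elsewhere, Ptprb-only 84 to 386 and Notch3-only 33 to 281. Msln-only nuclei numbered 503 in mesPVAT 10x and 0 to 17 elsewhere. Nuclei with none of these genes made up 77.2% of mesPVAT 10x, 81.6% of RP fat and 14.1% of BAT. Nuclei with more than 1 of them were also left out of the classes. These held 54.7% of the UMIs in cow WAT, 32.9% in taPVAT, 31.8% in BAT and 1.72% to 20.1% in the white rat libraries. Their median depth in cow WAT was 10314 UMIs. Background RNA was not removed, and its part in the class levels was not tested. Each class was highest in the summed level of its own list of markers in every library where it had at least 20 nuclei, but the margin over the next class was only 1.03-fold for Notch3-only nuclei of mesPVAT 10x and 1.3-fold for Pdgfra-only nuclei of RP fat, against 33.2-fold for Notch3-only nuclei of BAT. Gene by gene, only 3 of 10 markers were higher in Notch3-only nuclei of mesPVAT 10x and 4 of 10 in those of RP fat. In Pdgfra-only nuclei of RP fat, 6 of 10 were.

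Class sums of the 5 rat libraries were compared with edgeR's quasi-likelihood test, each class against the mean of the others with the library as a covariate. Here the libraries stand as replicates of the class difference, over different depots and 2 platforms. After the filter on low counts, 33 members were tested among 6742 genes, and the p-values are adjusted over all of these. Msln-only nuclei entered from 1 library, so that sum is assumed to vary like the others. In it 8 of the 33 members had no UMI, as did 902 of the 6742 genes tested. Several of these members, such as Col13a1, Col22a1 and Col24a1, had no usable estimate in this fit and could not be called. A second fit without the Msln-only sum on the same genes, chosen after seeing the data, called 2 members higher and 11 lower in Plin1-only nuclei, where 19.8% and 8.08% of all genes were. It called 5 higher and 0 lower in Pdgfra-only nuclei, where 1.5% and 0.222% of all genes were, and 0 higher and 1 lower in Ptprb-only nuclei, where 7.85% and 1.54% were. In Notch3-only nuclei it called 3 higher and 0 lower, where 2.8% and 0.771% of all genes were.

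Adipocyte nuclei held more Col7a1 and Col11a2 than the other classes. They held less of chains of collagens I, III, VI and XIV, and less Col4a4 and Col4a5. The main collagen IV chains did not pass, with log2 fold changes of 0.37 (SE 0.33) for Col4a1 and 0.18 (SE 0.34) for Col4a2. Their Plin1-only level was above the mean of the other classes in only 1 of 5 libraries for Col4a1 and 2 of 5 for Col4a2. The sign of these estimates thus went against most of the libraries. In Plin1-only nuclei, 2 of 33 members were higher, where 14% of all genes tested were, and 10 were lower, where 5.83% of all genes were. Of the 2, Col11a2 passed the filter on low counts only through these nuclei. The median log2 fold change was -0.64 over the members and 0.25 over all genes.

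Col7a1 was at 474 CPM in Plin1-only nuclei of mesPVAT 10x, 247 in mesPVAT Parse, 185 in RP fat, 699.9 in taPVAT and 482 in BAT. In Ptprb-only nuclei of the same libraries it was at 74.7, 87.8, 105, 89.7 and 32.4 CPM. The Plin1-only level was above the mean of the other classes in 5 of 5 rat libraries, although in mesPVAT Parse the Notch3-only level was 319 CPM, from 10 UMIs, and in the white libraries the other classes held 0 to 15 UMIs each. The log2 fold change was 2.49 (SE 0.41, edgeR adjusted p = 2.4e-05). A Col7a1 UMI was seen in 51.7% of Plin1-only nuclei of taPVAT and 51.3% of those of BAT, against 5.62% and 3.68% of Ptprb-only nuclei, whose median depth was lower (857 and 1122 against 1714 and 2044 UMIs). The cow differed: COL7A1 was at 15.2 CPM in Plin1-only nuclei (16 UMIs, 95% interval 8.71 to 24.8) and at 13.1 to 18.6 CPM in the other classes. Ucn2, 374 bases from Col7a1 on the same strand, held no UMI in mesPVAT 10x and cow WAT. It is not listed in the rat Parse libraries, so it was not counted in taPVAT and BAT. Uqcrc1, a nearby gene of the respiratory chain, was at 7.1 to 92.4 CPM over the libraries, also with its highest values in taPVAT (91.6) and BAT (92.4). Uqcrc1 was at 99 and 101 CPM in Plin1-only nuclei of taPVAT and BAT. Other classes in the fit were at 50.2 to 72.5 and 41.6 to 55.2 CPM there, from 5 to 18 UMIs each. In the white rat libraries each class in the fit held 0 to 16 Uqcrc1 UMIs. The part of Uqcrc1 in the Col7a1 counts was not tested.

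Col11a2, a chain of the fibrillar collagen XI known from cartilage, was at 113 CPM in Plin1-only nuclei of taPVAT (286 UMIs) and 115 CPM in those of BAT (388 UMIs). Other classes of these 2 libraries held 1 to 7 UMIs each where they entered the fit. In Plin1-only nuclei of the white rat libraries it was at 16.5 to 46.3 CPM, from 3 to 15 UMIs. Without the Msln-only sum, where it had no UMI, the log2 fold change was 3.39 (SE 0.49). In the white libraries the other classes held 0 to 5 UMIs, too few to compare within a library. Only the Plin1-only sums of taPVAT and BAT were high enough to pass the filter on low counts. Col11a2 was thus tested only through the class where it is high, so its call adds no support to these levels. The gene lies 214 bases from Rxrb on the same strand, and Rxrb was at 9.15 to 38.1 CPM over the libraries. Rxrb was also higher in Plin1-only nuclei of the brown depots, at 47.9 CPM in taPVAT and 43.5 CPM in BAT. Other classes in the fit were at 20.1 to 29 CPM in taPVAT and 9.24 to 20.7 CPM in BAT, from 2 to 6 UMIs each. In the white rat libraries each class in the fit held 0 to 9 Rxrb UMIs. The part of Rxrb in the Col11a2 counts was not tested.

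The 10 members lower in Plin1-only nuclei were Col1a1, Col1a2, Col3a1, Col4a4, Col4a5, Col6a1, Col6a2, Col6a3, Col6a6 and Col14a1. Col14a1 was lower in 4 of 5 libraries and the others in 5 of 5. In BAT, Col14a1 was at 16 CPM in these nuclei against a mean of 8.09 CPM in the other classes. The largest differences were in Col6a6 and Col6a1, chains of collagen VI, followed by Col4a5 (log2 fold change -2.20, SE 0.54). Col6a6 fell by 2.53 on the log2 scale (SE 0.50, edgeR adjusted p = 0.00026) and Col6a1 by 2.30 (SE 0.48, edgeR adjusted p = 0.0005). Col6a1 was at 121, 84.8, 116, 29.7 and 21 CPM in Plin1-only nuclei of mesPVAT 10x, mesPVAT Parse, RP fat, taPVAT and BAT. For Col3a1, the collagen III chain, the levels were 441, 332, 278, 144 and 51.8 CPM in the same order, with a log2 fold change of -1.58 (SE 0.41, edgeR adjusted p = 0.0046). Without taPVAT, 5 members were lower. Without mesPVAT 10x, taPVAT or BAT, 1 member was higher, with Col11a2 below the filter and not tested.

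Stromal progenitor nuclei held more of both collagen I chains, Col6a3 and Col14a1. In Pdgfra-only nuclei, 4 of 33 members were higher, where 0.875% of all genes tested were, and 0 were lower by edgeR (2 at an unadjusted p under 0.05, 0 by DESeq2), where 0.089% of all genes were. BAT did not enter, since it had only 19 such nuclei. Col14a1, a FACIT collagen, was at 2791 CPM in mesPVAT 10x, 289 in mesPVAT Parse, 163 in RP fat and 532 in taPVAT, with a log2 fold change of 2.52 (SE 0.46, edgeR adjusted p = 0.0016). In RP fat its level was 175 CPM in Notch3-only nuclei, from 4 UMIs against 6 UMIs in Pdgfra-only nuclei, too few to order the 2 classes. Col1a1 was at 2154, 758, 652 and 1314 CPM in the same order, with a log2 fold change of 2.00 (SE 0.39, edgeR adjusted p = 0.0035). Col1a2 and Col6a3 had log2 fold changes of 2.10 (SE 0.40, edgeR adjusted p = 0.0022) and 1.94 (SE 0.47, edgeR adjusted p = 0.029). Col6a3 was above the mean of the other classes in 3 of 4 libraries and the other 3 genes in 4 of 4. Col3a1 was at 2252, 1264, 1440 and 2890 CPM and did not pass the test (log2 fold change 1.31, SE 0.42, edgeR adjusted p = 0.16), but passed without the Msln-only sum (1.81, SE 0.39, edgeR adjusted p = 0.0069). These calls rest on taPVAT: without it, or with only nuclei of at least 500 UMIs, 0 members were called, while the log2 fold changes of the 4 genes lay between 1.67 and 2.54. Col6a3 also missed the threshold without mesPVAT 10x (log2 fold change 1.76, edgeR adjusted p = 0.15).

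**Figure D2:**
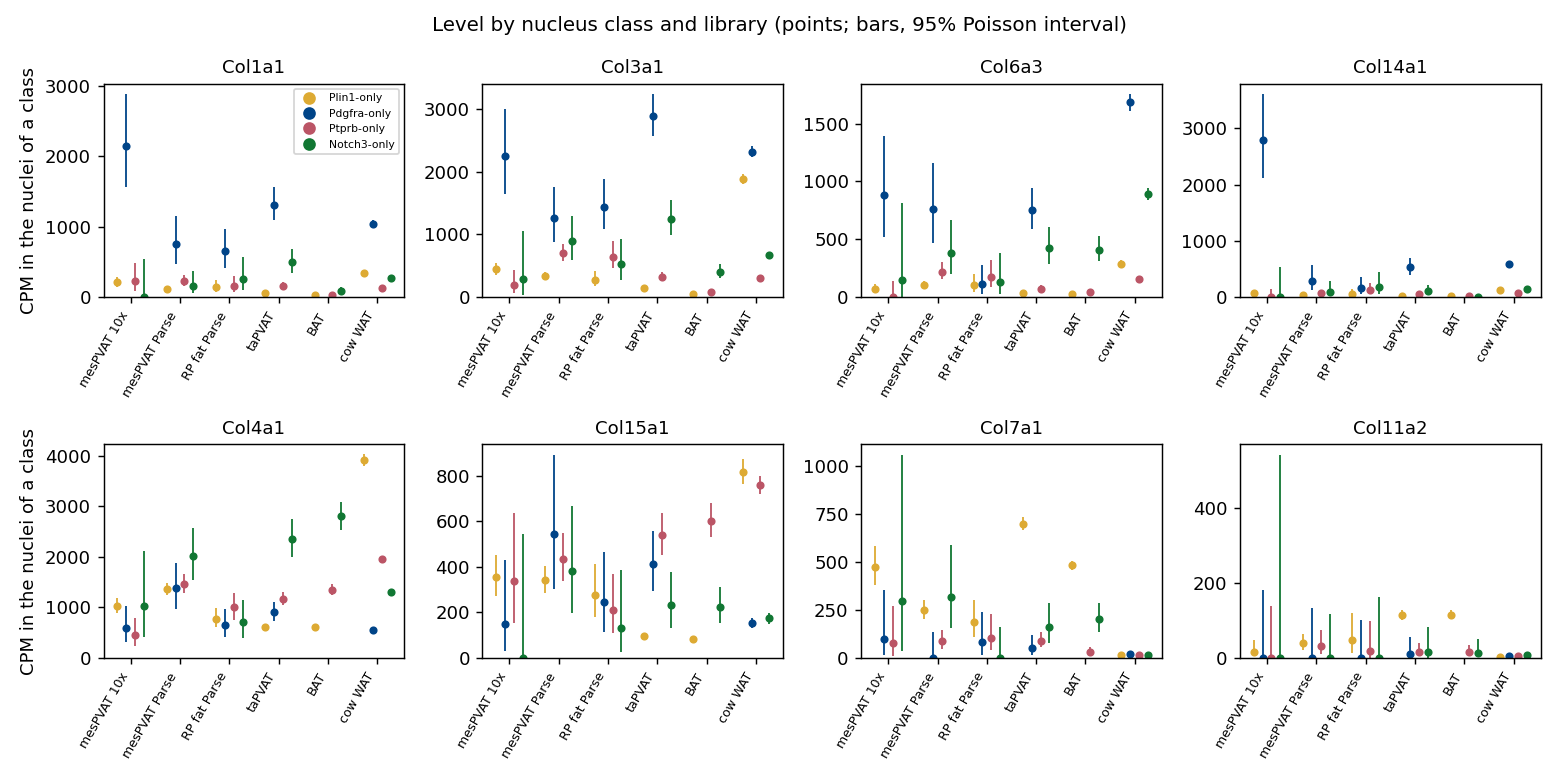
Level of 8 members by class and library, as CPM over the UMIs of the class's nuclei, with exact 95% Poisson intervals as bars and classes under 20 nuclei left out. Among the classes of a library, Col1a1 and Col14a1 are both highest in Pdgfra-only nuclei of mesPVAT 10x, mesPVAT Parse, taPVAT and cow WAT. Col7a1 is highest in Plin1-only nuclei of taPVAT (699.9 CPM) and BAT (482 CPM). It is between 13.1 and 18.6 CPM in every class of cow WAT.

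Genes that modify, cut or bind collagen were counted from a list of 48, of which 35 were tested. In Pdgfra-only nuclei 8 were higher, where 0.875% of all genes were, led by Dcn (decorin, which binds collagen fibrils; log2 fold change 3.78, SE 0.49, edgeR adjusted p = 4.5e-06), Fap (a protease of activated fibroblasts; 3.47, SE 0.86, edgeR adjusted p = 0.034), Lum (lumican; 3.45, SE 0.80, edgeR adjusted p = 0.021) and Mrc2 (a collagen uptake receptor; 2.67, SE 0.58, edgeR adjusted p = 0.011). Dcn and Lum are also in the marker list of the class. Dcn was above the mean of the other classes in 4 of 4 libraries, Fap and Mrc2 in 3 of 4 and Lum in only 2 of 4. In Plin1-only nuclei 6 of the 35 were lower, where 5.83% of all genes were, led by Plod2, a lysyl hydroxylase (log2 fold change -1.89, SE 0.55, edgeR adjusted p = 0.012, lower in 3 of 5 libraries), and 1, the collagen cross-linking enzyme Loxl2, was higher (1.72, SE 0.36, edgeR adjusted p = 0.00066), a share under the 14% of all genes. In Ptprb-only nuclei Tll1, a propeptide-cutting protease, was higher (3.03, SE 0.39, edgeR adjusted p = 2.6e-06), and Pcolce and Adamts2 were lower, where 4.78% of all genes were higher and 1.5% lower.

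Endothelial nuclei held less Col1a2 and Col6a2, chains of collagens I and VI. In Ptprb-only nuclei 0 members were higher by edgeR (1 at an unadjusted p under 0.05, 0 by DESeq2), where 4.78% of all genes were, and 2 were lower, where 1.5% of all genes were. These were Col1a2 (log2 fold change -1.52, SE 0.42, edgeR adjusted p = 0.022) and Col6a2 (-1.46, SE 0.45, edgeR adjusted p = 0.045), each lower in 5 of 5 libraries. Without mesPVAT 10x or without taPVAT 0 passed, and without BAT 1 did. Col15a1, the collagen XV chain of capillary basement membranes, was at 336, 433, 209.7, 538 and 603 CPM in Ptprb-only nuclei of mesPVAT 10x, mesPVAT Parse, RP fat, taPVAT and BAT, and did not pass (log2 fold change 1.06, SE 0.41, edgeR adjusted p = 0.13). In Plin1-only nuclei it was at 353, 342 and 278 CPM in the white libraries and at 96.2 and 84.3 CPM in taPVAT and BAT. Those brown levels were the lowest of Col15a1 in any class that entered the fit in these 2 libraries.

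In Notch3-only nuclei, 0 members passed in either direction by edgeR (4 higher and 1 lower at an unadjusted p under 0.05, and 1 higher by DESeq2), where 0.756% and 0.489% of all genes did. The 3 members higher without the Msln-only sum were Col6a6 (log2 fold change 2.05, SE 0.42, edgeR adjusted p = 0.0019), Col19a1, a FACIT collagen (2.18, SE 0.54, edgeR adjusted p = 0.012), and Col6a2 (1.43, SE 0.39, edgeR adjusted p = 0.026). Col6a6 was at 639, 263, 653 and 517 CPM in mesPVAT Parse, RP fat, taPVAT and BAT and had no UMI among the 6812 of this class in mesPVAT 10x. Without that library, 4 members were higher. Col4a1 reached 2349 CPM in taPVAT and 2801 CPM in BAT, against 1170 and 1343 CPM in Ptprb-only and 604 and 613 CPM in Plin1-only nuclei, but did not pass over the 5 libraries (log2 fold change 0.73, SE 0.37, edgeR adjusted p = 0.38). Col18a1, the precursor of endostatin, was at 290 and 435 CPM in these nuclei of taPVAT and BAT and did not pass (log2 fold change 1.08, SE 0.55, edgeR adjusted p = 0.38). In the Notch3-only nuclei of taPVAT and BAT, striated muscle markers were also raised, at 3640 and 2228 CPM against 60.1 to 259 CPM in the Plin1-only, Pdgfra-only and Ptprb-only nuclei that entered the fit; their part was not tested.

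In Msln-only nuclei of mesPVAT 10x, 0 members passed in either direction by edgeR (7 higher and 0 lower at an unadjusted p under 0.05, and 0 by DESeq2), where 1.44% and 0% of all genes did. The mesothelial nuclei held Col3a1 at 1428 CPM, Col1a2 at 561 CPM, Col1a1 at 544 CPM and Col6a1 at 527 CPM. The X-linked pair Col4a5 and Col4a6, chains of a minor collagen IV network, were at 357 and 238 CPM, against 38.6 and 33.1 CPM in Plin1-only nuclei of the same library. With 1 library, this difference has no replicate check.

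**Figure D3:**
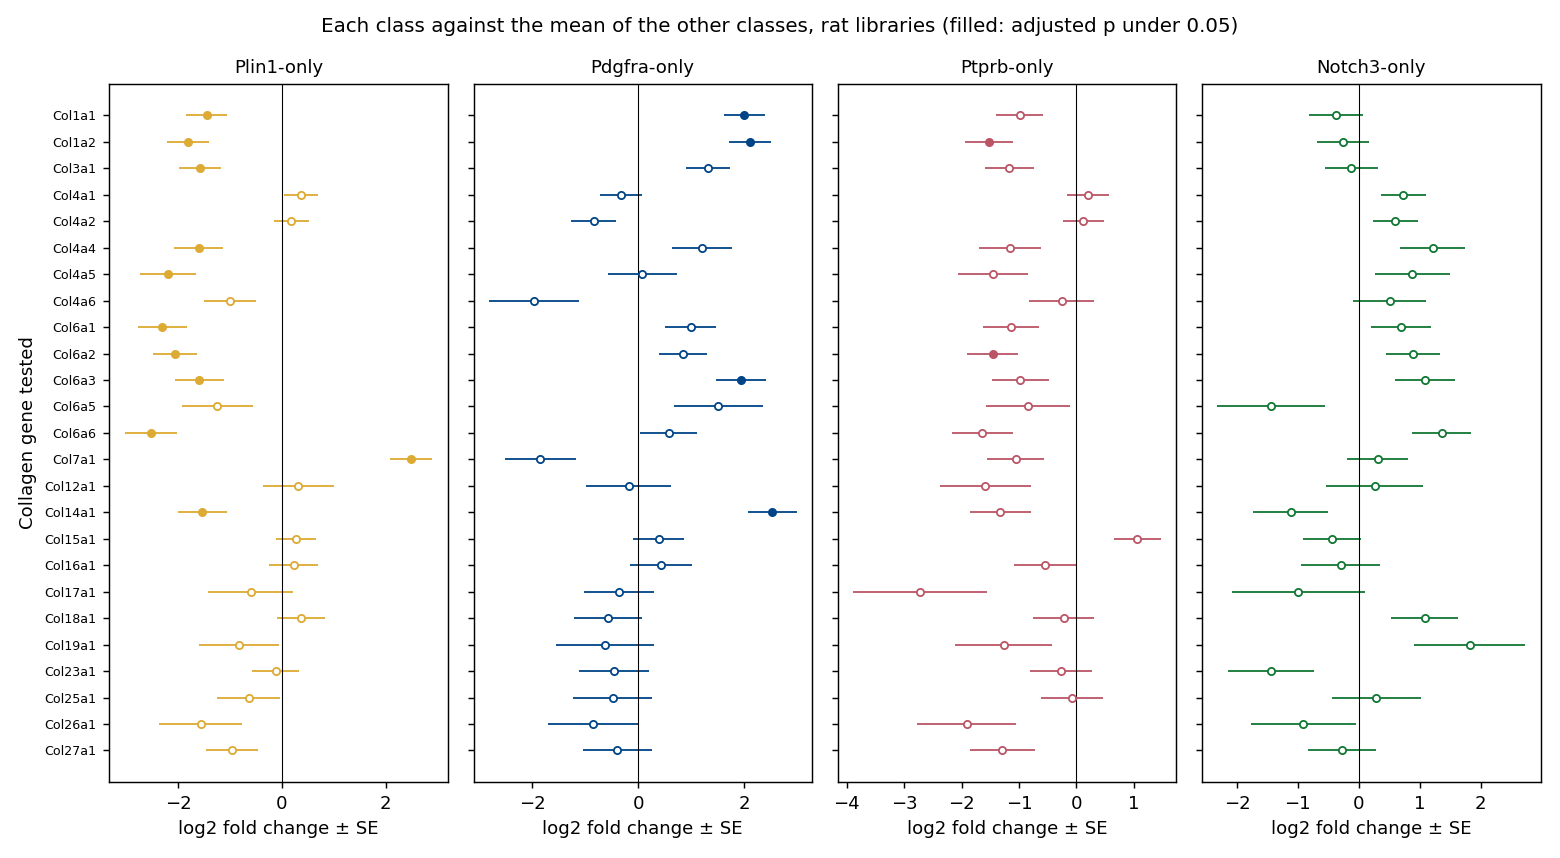
Log2 fold change of each class against the mean of the other classes for the 25 tested members that had a UMI in the Msln-only sum, with the SE as bars and filled points at an edgeR adjusted p under 0.05. Col7a1 stands at 2.49 in Plin1-only nuclei, and Col1a1, Col1a2, Col6a3 and Col14a1 are the filled points in Pdgfra-only nuclei.

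The cow library was not in that fit. In its Plin1-only nuclei, COL4A1 was at 3910 CPM (95% interval 3791 to 4031), against 1953 CPM in Ptprb-only, 1302 in Notch3-only and 553 in Pdgfra-only nuclei. COL4A2 followed with 3589, 1605, 1082 and 388 CPM. COL18A1 was at 411 CPM in Plin1-only nuclei and at 85.6 to 348 CPM in the other classes, and COL15A1 at 817 and 758 CPM in Plin1-only and Ptprb-only nuclei. A COL4A1 UMI was seen in 88.7% of the 150 Plin1-only nuclei, with 362 of the 4103 UMIs in 1 nucleus, and the level was 3316 CPM in 1 sublibrary and 4704 CPM in the other. The rat libraries varied: Col4a1 was lowest in Plin1-only nuclei among the classes in the fit in taPVAT and BAT, and highest there in mesPVAT 10x, at 1031 CPM against 1028 CPM in Notch3-only nuclei. Col4a2 was highest in Plin1-only nuclei of mesPVAT Parse, at 989 CPM against 926 CPM in Notch3-only nuclei. Summed over members, Plin1-only nuclei of the cow were at 12417 CPM, against 2434 to 5485 CPM in the rat libraries.

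COL1A1 (1034 CPM), COL1A2 (1001 CPM), COL14A1 (595 CPM) and COL6A3 (1685 CPM) were highest in the Pdgfra-only nuclei among the classes of the cow. In RP fat of the rat, Col6a3 was at 109 CPM in these nuclei (4 UMIs) and 175 CPM in Ptprb-only nuclei (10 UMIs), with overlapping intervals. COL6A3 was at 774 CPM over the whole cow library and at 82 to 187 CPM in the rat libraries. Of genes chosen after their values were seen, COL8A1, a short-chain collagen, was at 109 CPM in the cow library and 1.58 to 8.08 CPM in the rat libraries, and COL21A1, a FACIT collagen listed only in the cow file, was at 271 CPM in Notch3-only nuclei and 19.1 to 50.1 CPM in the other classes. Species, depot, sex, lactation, nuclei filtering and housing differ together here and cannot be told apart.

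The comparison of taPVAT with BAT sets a perivascular against a classical brown depot, both on the Parse platform. Of 38 members with at least 10 UMIs in at least 1 of the 2 libraries, 7 were at least 2-fold higher in taPVAT, where 7.58% of all genes were, and 0 were at least 2-fold lower, where 2.12% of all genes were. With 1 library each, no test was made. The 7 included both collagen I chains and Col3a1. Col14a1 was at 59.6 CPM in taPVAT and 19.6 CPM in BAT, a ratio of 3.04 (95% interval 2.46 to 3.77). Col1a1 was at 162 and 58.4 CPM (ratio 2.77, 2.45 to 3.14), Col1a2 at 140.0 and 54.4 CPM (2.57, 2.26 to 2.93), and Col3a1 at 425 and 176 CPM (2.41, 2.24 to 2.59). Col6a5 had a ratio of 2.51 (2 to 3.16) and Col8a2 one of 2.38 (1.17 to 5.07), and Col2a1 had 19 and 8 UMIs.

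The multiplexins had ratios of taPVAT to BAT of 0.949 for Col15a1 and 0.916 for Col18a1. The collagen IV chains ranged widely, with ratios of 1.6 (1.12 to 2.28) for Col4a6, 0.911 for Col4a4, 0.875 for Col4a1, 0.826 for Col4a2 and 0.664 (0.527 to 0.835) for Col4a3. Col4a5 had the lowest, 0.507 (0.401 to 0.638), at 20.8 and 41 CPM. Col12a1, a FACIT collagen, was at 102 and 109 CPM. In Plin1-only nuclei it was at 95 CPM in taPVAT and 141 CPM in BAT. In those of RP fat it was at 69.5 CPM, from 6 UMIs, with an interval (25.5 to 151) that covers these values. Those of mesPVAT Parse were at 46.3 CPM (27.4 to 73.1), and those of the non-Parse mesPVAT library held no UMI (under 16.5 CPM). In taPVAT, Notch3-only (174 CPM) and Pdgfra-only nuclei (120.4 CPM) were higher, with intervals that overlapped that of Plin1-only nuclei. Ptprb-only nuclei were lower, at 42.9 CPM in taPVAT and 4.62 CPM in BAT, as were Notch3-only nuclei of BAT (27.6 CPM). Pdgfra-only nuclei made up 2.88% of taPVAT and 0.704% of BAT, and the stromal progenitor markers summed to 1987 and 1595 CPM; their part in the ratios was not tested. Within Plin1-only nuclei Col3a1 was also higher in taPVAT, at 144 CPM (130 to 160.1), than in BAT, at 51.8 CPM (44.4 to 60).

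The Parse libraries labelled mesPVAT and RP fat differed at least 2-fold in 7 of 39 members. Col4a2 was higher in mesPVAT, at 765 against 361 CPM (ratio 2.12, 1.87 to 2.41), as was Col18a1, at 254 against 123 CPM (2.07, 1.66 to 2.59), and 6.3% of all genes were higher by this rule. Those lower in mesPVAT were Col13a1 (43.5 against 121 CPM, ratio 0.36), Col2a1 (0.39, from 13 and 17 UMIs), Col22a1 (77.9 against 166 CPM, 0.47), Col17a1 (0.471) and Col26a1 (0.499), and 10.5% of all genes were lower. The members' shares, 5.13% higher and 12.8% lower, were near those of all genes. The balance turned with the scaling: 5 members were higher and 2 lower after dividing by the median ratio, and 4 and 2 with nuclei of at least 500 UMIs. Col13a1 and Col17a1 are transmembrane collagens. For the genes called in Pdgfra-only nuclei the ratios were 0.794 (0.666 to 0.948) for Col1a1, 0.958 (0.76 to 1.21) for Col1a2, 0.781 (0.612 to 1) for Col14a1 and 1.28 (1.04 to 1.59) for Col6a3.

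More members differed between the 10x and Parse libraries labelled mesPVAT, which also differ in batch and nuclei isolation. Between them, 5 of 40 members were at least 2-fold higher on 10x, where 20.9% of all genes were, and 25 were at least 2-fold lower, where 38.4% of all genes were. The higher genes were Col4a5 (113 against 36.8 CPM, ratio 3.07), Col1a2 (315 against 129 CPM, 2.44), Col14a1 (241 against 103 CPM, 2.35), Col1a1 (467 against 199 CPM, 2.34) and Col7a1 (324 against 158 CPM, 2.05). Among those lower with at least 10 UMIs in both libraries, Col23a1 had a ratio of 0.0892, Col12a1 of 0.275, Col18a1 of 0.28, Col27a1 of 0.293, Col11a2 of 0.335 and Col6a6 of 0.401. Col22a1 had no UMI on 10x (under 2.42 CPM) and 77.9 CPM on Parse, at least 32.1-fold lower by the 3-UMI limit for the library. The median gene body was 119 kilobases for the members lower on 10x and 34.9 kilobases for those higher, and 36.8 and 16.8 kilobases over all genes. For genes within 2-fold it was 66.2 kilobases over the members and 35.7 kilobases over all genes, near that of all genes lower on 10x. The part of gene length was not tested. Mesothelial markers summed to 1900 CPM on 10x and 395 CPM on Parse, beside the Col4a5 difference; their part was not tested.

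**Figure D4:**
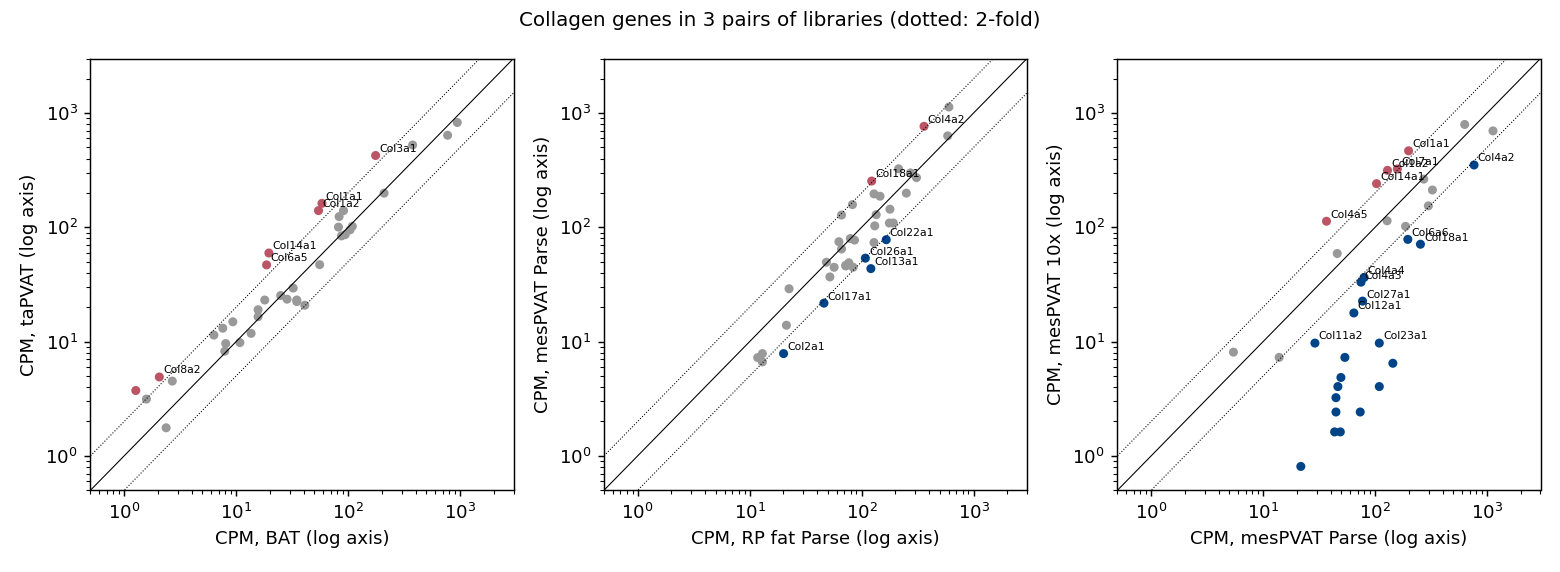
CPM of each member in 3 pairs of libraries on log axes, with the line of equal level, dotted lines at 2-fold, red points at least 2-fold higher and blue points at least 2-fold lower in the library on the vertical axis; genes with no UMI in either library are left out. In taPVAT against BAT the 7 red points include Col1a1, Col1a2, Col3a1 and Col14a1, and in mesPVAT 10x against mesPVAT Parse most of the points lie below the line.

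Some pairs of chains kept their ratio over the libraries and others did not. Per kilobase of gene body, the UMIs of Col4a2 for each of Col4a1, the pair shown above, were 0.41 (0.365 to 0.461) in mesPVAT 10x, 0.553 (0.514 to 0.594) in mesPVAT Parse, and 0.489 (0.423 to 0.565) in RP fat. The ratio was 0.632 (0.603 to 0.662) for taPVAT and 0.67 (0.645 to 0.695) for BAT. Col4a1 was higher in all 5 libraries, and the intervals of taPVAT and BAT overlapped. For collagen I, Col1a2 per Col1a1 ran from 0.262 in RP fat to 0.454 in BAT per kilobase. Col4a6 per Col4a5 ran from 0.132 in BAT to 0.806 in RP fat. Col4a4 per Col4a3 was 2.83 to 3.88, with overlapping intervals in all 5 rat libraries. Col6a2 per Col6a1 was 0.73 in mesPVAT Parse, 0.75 in taPVAT and 0.727 in BAT, and 0.386 in mesPVAT 10x and 0.588 in RP fat. Without regard to length, Col4a4 per Col4a3 was 0.927 to 1.27 in the rat libraries. Col4a6 per Col4a5 then ran from 0.228 in BAT to 1.39 in RP fat. Col6a2 per Col6a1 was then 1.1 in mesPVAT Parse, 1.13 in taPVAT, 1.1 in BAT, 0.581 in mesPVAT 10x and 0.885 in RP fat. For these pairs, which chain was higher depended on the division by length in some libraries. Reads of overlapping genes can be shared: Sgca overlaps Col1a1 and Rpl29 overlaps Col6a4, Col6a5 and Col6a6.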

How the data were processed

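The authors aligned Parse reads with split-pipe to GRCr8 (rat) or ARS-UCD1.3 (cow), and 10x reads with Cell Ranger to a rat reference named as Rnor_6.0, and deposited raw UMI counts per gene and nucleus, without normalization. FastQC and Scanpy are named in the submitters' processing notes. Whether counting used strand is not given in the sources used here.

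All deposited nuclei were used, with no correction for ambient RNA. The paper found no clear inflection point between nuclei and background for the Parse libraries of mesPVAT and RP fat. It read this as difficulty in telling nuclei from ambient RNA. UMIs were summed over nuclei (rows with the same symbol added) and given as CPM with exact Poisson intervals (95%), which cover counting error only, as UMIs of 1 library are not replicates. Members and gene lists were chosen with earlier results of these data known. Class sums with at least 20 nuclei were fitted with edgeR 4.0.16 in R 4.3.3 (TMM scaling, filterByExpr, class and library as terms, quasi-likelihood test, Benjamini-Hochberg adjustment over all genes). The SE is the log2 fold change divided by the square root of F. The libraries come from different depots, and nothing says that they came from separate animals, so p-values measure the spread between these libraries. The fit was tested on simulated data. Pairs of libraries were compared with no test, by a 2-fold limit over genes with at least 10 UMIs in 1 library, with counts under 3 set to 3. Doublets were not removed, apart from the rule that a class nucleus is positive for only 1 class gene. Gene lengths of 41 rat members came from RefSeq GRCr8. Alternatives were DESeq2 1.42.0, other scaling, filters, nuclei, class rules and libraries.

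The genes named are chains of collagens I, III, IV, VI, XII, XIV, XV and XVIII, members called in a class contrast, up to 6 members per direction past 2-fold in a pair with at least 10 UMIs in both libraries, the 3 highest per kilobase in each rat library, and up to 4 called genes of collagen processing per class. Others are said to be chosen later. Python 3.11.15 with numpy 2.4.6, pandas 2.3.3 and scipy 1.17.1 was used. Total depth was 845316 to 16827260 UMIs per library, so that 1 UMI was 0.0594 to 1.18 CPM.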

Additional observations from a re-analysis of the deposited data

Results flagged for a closer look

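Col3a1 and Col7a1 had the opposite sign in the cow and in every rat library in the log2 ratio of Plin1-only nuclei to the mean of the Pdgfra-only, Ptprb-only and Notch3-only nuclei with at least 20 nuclei. The log2 ratio of COL3A1 was 0.78 in cow WAT (1883 against 1097 CPM), and it was below 0 in the 5 rat libraries, from -1.05 in mesPVAT 10x to -3.36 in taPVAT. A COL3A1 UMI was seen in 85.3% of the cow's Plin1-only nuclei, and the level was 1792 CPM in 1 sublibrary and 2004 CPM in the other. The stromal progenitor markers summed to 861 CPM in these nuclei and 6357 CPM in the cow's Pdgfra-only nuclei, and their part in the COL3A1 level was not tested. The log2 ratio of COL7A1 was -0.02 in cow WAT (15.2 against 15.5 CPM, a difference within counting error, so that the cow showed no direction), and it was above 0 in the 5 rat libraries, from 0.86 in mesPVAT Parse to 2.81 in taPVAT. The difference between species was not tested, since there was 1 cow library.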

How the results depend on the processing

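No paired analysis was possible because each condition has 1 library, so that any 2 groups share only 1 replicate number. The class contrasts hold the library as a term. Over 18 called differences of single members in class contrasts, 260 values under alternatives all kept their direction, and 33 of them missed the threshold. The fit on only the 4 rat Parse libraries is the same as the fit without mesPVAT 10x, so its values are counted again. A gene not tested in an alternative gave no value there, and Col11a2 had only 9 values. Leaving out each rat library in turn (leave-one-out) gave 1 to 2 members higher and 5 to 10 lower in Plin1-only nuclei, 0 to 5 higher in Pdgfra-only nuclei, 0 to 3 lower in Ptprb-only nuclei, 0 to 4 higher in Notch3-only nuclei and 0 to 1 higher in Msln-only nuclei; without mesPVAT 10x there is no Msln-only sum. With nuclei of at least 500 UMIs, the count was 1 higher in Plin1-only nuclei, 0 higher in Pdgfra-only and 0 lower in Ptprb-only nuclei. With classes from marker lists it was 11 higher and 1 lower in Pdgfra-only, 10 lower in Ptprb-only, 4 higher in Notch3-only, and 1 higher and 2 lower in Msln-only nuclei. With only the 4 rat Parse libraries it was 1 higher in Plin1-only, 0 lower in Ptprb-only and 4 higher in Notch3-only nuclei. Without filterByExpr it was 1 higher and 4 lower in Ptprb-only and 2 higher in Msln-only nuclei. DESeq2 gave 1 higher in Notch3-only nuclei. Without the Msln-only sum it was 1 higher in Plin1-only nuclei (2 on the genes of the first fit), 1 lower in Ptprb-only and 3 higher in Notch3-only nuclei.

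For pairs of libraries, a 1.5-fold limit gave 13 members higher and 3 lower in taPVAT than BAT, and 7 higher and 16 lower in mesPVAT than RP fat. Dividing by the median ratio gave 1 lower in taPVAT, and 5 higher and 2 lower in mesPVAT than RP fat. For the latter pair, nuclei of at least 500 UMIs gave 4 higher and 2 lower, and the study's fixed limits 8 lower. The cause was not tested.

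The summed level became 4439 and 6322 CPM with nuclei of at least 500 UMIs in mesPVAT 10x and mesPVAT Parse. With a total that leaves out the gene with most UMIs and mitochondrial genes, it became 4718, 6444, 4675, 4186 and 9199 CPM in mesPVAT 10x, mesPVAT Parse, taPVAT, BAT and cow WAT. In Pdgfra-only nuclei it was 12289, 8773, 7497 and 9211 CPM in mesPVAT 10x, mesPVAT Parse, RP fat and cow WAT, and 9546, 6497, 6045 and 9617 CPM with classes from marker lists. Among classes of at least 20 nuclei, depth limits Pdgfra-only and Notch3-only nuclei of mesPVAT 10x most, where no UMI allows up to 147 and 440.4 CPM.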

Other observations

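Col25a1, a transmembrane collagen, was highest in the white rat Parse libraries. In RP fat it was at 151, 109, 139.8 and 263 CPM in Plin1-only, Pdgfra-only, Ptprb-only and Notch3-only nuclei, from 13, 4, 8 and 6 UMIs, and at 211 CPM in nuclei with none of the class genes. Over the whole libraries it was at 192 CPM in RP fat, 109 CPM in mesPVAT Parse, 23.5 CPM in taPVAT, 28.5 CPM in BAT and 4.04 CPM in mesPVAT 10x. Col22a1, Col23a1 and Col24a1 were also highest in RP fat, at 166, 177 and 129 CPM. These 4 genes, chosen after their values were seen, have bodies of 237 to 399 kilobases in the rat. Some short members were also highest in RP fat, from 10 to 17 UMIs. Among them were Col10a1 (6.98 kilobases, 11.8 CPM), Col9a2 (17.3 kilobases, 13 CPM) and Col2a1 (29.1 kilobases, 20.1 CPM), likewise chosen later. The part of gene length was not tested.

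Col19a1 was at 435 CPM in Notch3-only nuclei of BAT, and at 11.6 to 13.9 CPM in its Ptprb-only and Plin1-only nuclei. Counted by class, 20 of 32 members with at least 20 UMIs over the classes of BAT were highest in Notch3-only nuclei (62.5%, against 31.1% of all genes), as were 13 of 32 in taPVAT (40.6%, against 25.7%), 13 of 30 in mesPVAT Parse (43.3%, against 27.4%) and 15 of 34 in cow WAT (44.1%, against 28.9%). The count was 5 of 18 in RP fat (27.8%, against 26.9%) and 1 of 16 in mesPVAT 10x (6.25%, against 21.8%). In BAT the 19 Pdgfra-only nuclei were not among the classes counted, so its count leaves out stromal progenitors. Several members counted as highest in Notch3-only nuclei of BAT were higher in those 19 nuclei. Col3a1 was at 1503 against 407 CPM, Col6a6 at 1460 against 517, Col6a2 at 1374 against 497 and Col1a1 at 773 against 82.8 CPM. Others were lower there, with Col18a1 at 129 and Col19a1 at 42.9 CPM, against 435 CPM each in Notch3-only nuclei. In mesPVAT 10x, 8 of 16 members were highest in Pdgfra-only nuclei (50.0%, against 21.6% of all genes).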
